A study of Mus musculus with 16 samples.

Results

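Adult microglia from mice labelled IRF8KO were compared with adult microglia from wild-type (WT) mice in 4 of the 16 libraries of this mouse series, 2 per genotype. The members were taken by their labels alone: females aged 3 months, sorted by flow cytometry, with no treatment, and batch number 2 in the title of all 4. The other 12 libraries, 3 per genotype at postnatal day 9 (P9) and 3 per genotype at postnatal day 14 (P14), also come from females and entered the same model. The labels give the genotype as IRF8KO and say nothing of the allele, of a Cre driver or of which cells lack the gene. Cells were released from each brain by a method without enzymes, and nothing more is said on animals or litters. P-values therefore measure the spread between samples, estimated over all 16 libraries and not over the 4 adult ones alone.

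Microglia are the macrophages of the brain tissue, which arise from yolk sac precursors and persist by self-renewal. They need signals through the receptor Csf1r and through TGF-beta to hold their resting programme. IRF8 belongs to the interferon regulatory factors, a family of DNA-binding proteins. It acts with partners such as PU.1, an ETS factor encoded by Spi1, or with BATF proteins, and it is needed for normal development of microglia and of several other myeloid lineages. Macrophages at the borders of the brain, in meninges and perivascular spaces, carry a different set of genes.

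Reads assigned to genes came to 11.4 M and 9.98 M in the WT libraries and 10.13 M and 10.03 M in those labelled IRF8KO. Between 20.1% and 35.9% of uniquely mapped reads lay outside genes, and replicate 1 of each genotype had the higher share (30.0% against 20.1% in WT, 35.9% against 22.9% in IRF8KO). The microglial markers Csf1r and Tmem119 were abundant in every library, at 7798 to 25830 and 4170 to 17870 CPM (read counts scaled to library size). Not all markers of that list were. P2ry12 held 128.3 to 897.1 CPM, and Sall1 held 196.4 and 49.0 CPM in WT but 2.44 and 0.494 CPM in IRF8KO. The correlation of log2 CPM was 0.904 between the WT libraries and 0.956 between the IRF8KO libraries, against 0.876 to 0.918 across genotypes. CPM were scaled by the trimmed mean of M-values (TMM), and Apoe alone took 12.4% and 16.2% of the gene reads in the IRF8KO libraries. In bulk RNA of a sorted population, fewer cells of a type and less RNA per cell cannot be told apart.

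Irf8 itself was read in every library. The WT libraries held 556.6 and 1178 CPM and the IRF8KO libraries 388.9 and 693.1 CPM, so the ranges overlapped. The log2 fold change was -0.68 ± 0.40 (standard error, SE) with an adjusted p of 0.744 in edgeR's quasi-likelihood test. Counts per gene cannot show which exons were read, so they do not check a deletion inside the gene, and the IRF8KO group is named here as its labels name it. The partner Spi1 held 214.6 and 627.6 CPM in WT and 184.2 and 344.9 CPM in IRF8KO, and it did not pass the test (log2 fold change -0.67 ± 0.47, adjusted p = 0.906).

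Of 18295 genes tested, 575 (3.14%) were called at an adjusted p below 0.05. In libraries labelled IRF8KO 302 genes (1.65%) were higher and 273 (1.49%) were lower. In all 575 the 2 IRF8KO values lay wholly above or below the 2 WT values, which was so for 29.2% of all genes tested. The differences were large: 237 of the higher and 207 of the lower genes had a fitted change of over 4-fold. In 42 higher genes 1 group had no read at all, as in 18 lower ones. Leaving out WT replicate 2 gave 393 calls and leaving out WT replicate 1 gave 605, of which 200 were higher and 405 lower. Without IRF8KO replicate 1 there were 339 calls, 238 higher and 101 lower, and without IRF8KO replicate 2 there were 320, 151 higher and 169 lower. The balance between directions therefore changed with single libraries.

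**Figure D1:**
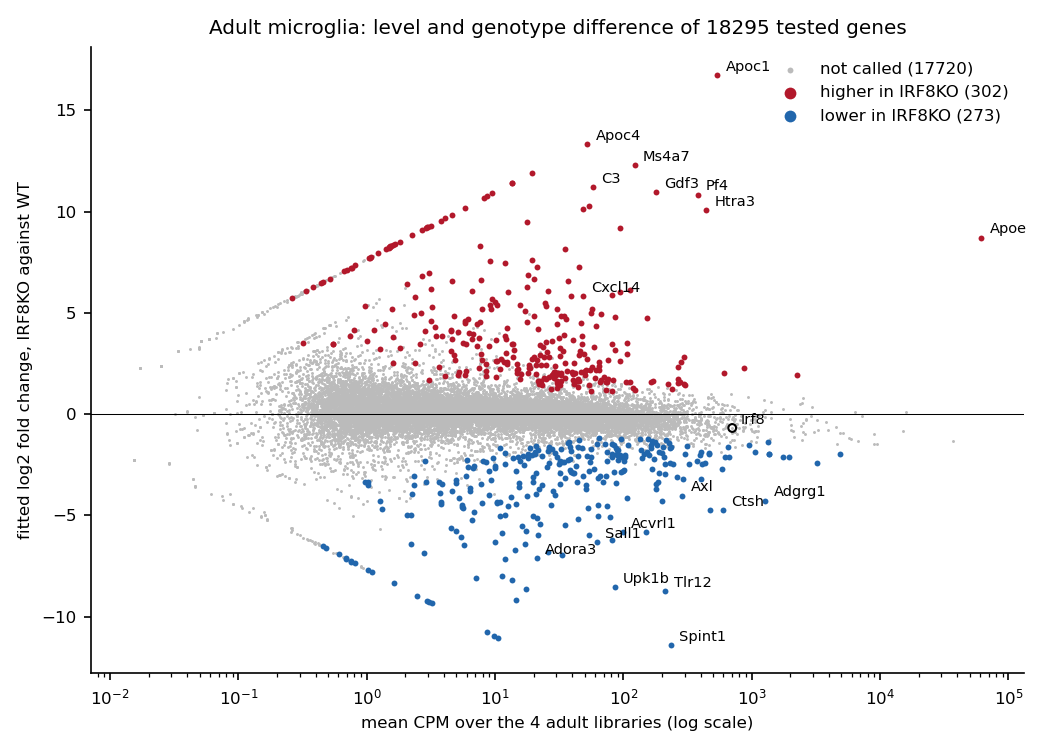
Mean CPM over the 4 adult libraries (log scale) against the fitted log2 fold change of IRF8KO against WT, 1 point per tested gene, with called genes in red (302 higher) and blue (273 lower). The diagonal edges at low CPM are genes with no read in 1 genotype, Apoe lies far to the right of all other called genes, and the circled Irf8 lies among the genes that were not called.

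Several genes with large decreases were almost unread in IRF8KO. Spint1, a membrane-bound inhibitor of serine proteases, held 331.5 and 604.0 CPM in WT and 0.0679 and 0.297 CPM in IRF8KO. Its log2 fold change was -11.39 ± 0.66 (adjusted p = 6.88e-07). Tlr12, a toll-like receptor that senses parasite profilin, held 251.2 and 596.3 CPM against 1.56 and 0.297 CPM (log2 fold change -8.74 ± 1.04, adjusted p = 5.08e-05). Upk1b, a tetraspanin, held 126.0 and 214.3 CPM against 0.407 and 0.494 CPM (-8.54 ± 0.81 on the log2 scale, adjusted p = 7.83e-06). For these genes the lowest WT library held more than 100 CPM and no IRF8KO library reached 2 CPM. Tns4, which encodes a tensin of focal adhesions, held 22.04 and 17.1 CPM in WT and had no read in either IRF8KO library, at least 161.9-fold lower (3 reads placed over the group at 0). Fam89a was likewise read in WT alone, at 11.4 and 22.9 CPM, which makes it at least 141.9-fold lower.

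Pdcd1, Slamf8, Slamf6 and Il7r, which encode receptors of immune cells, were also lower. Pdcd1, the inhibitory receptor PD-1, held 25.4 and 33.0 CPM in WT, and the IRF8KO libraries had a single read between them. The ratio was 696.1, with an exact 95% counting interval from 124.5 to 27530, and such intervals cover counting error only. Slamf8 and Slamf6, receptors of the SLAM family, held 29.3 and 40.5 CPM and 30.4 and 14.5 CPM in WT, and each IRF8KO library had 0 or 0.136 CPM of either. Il7r, the receptor chain for interleukin 7, held 38.0 and 4.35 CPM in WT and no read in IRF8KO (at least 175.3-fold lower). The WT libraries differed more from each other in Il7r than in the other genes named here.

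**Figure D2:**
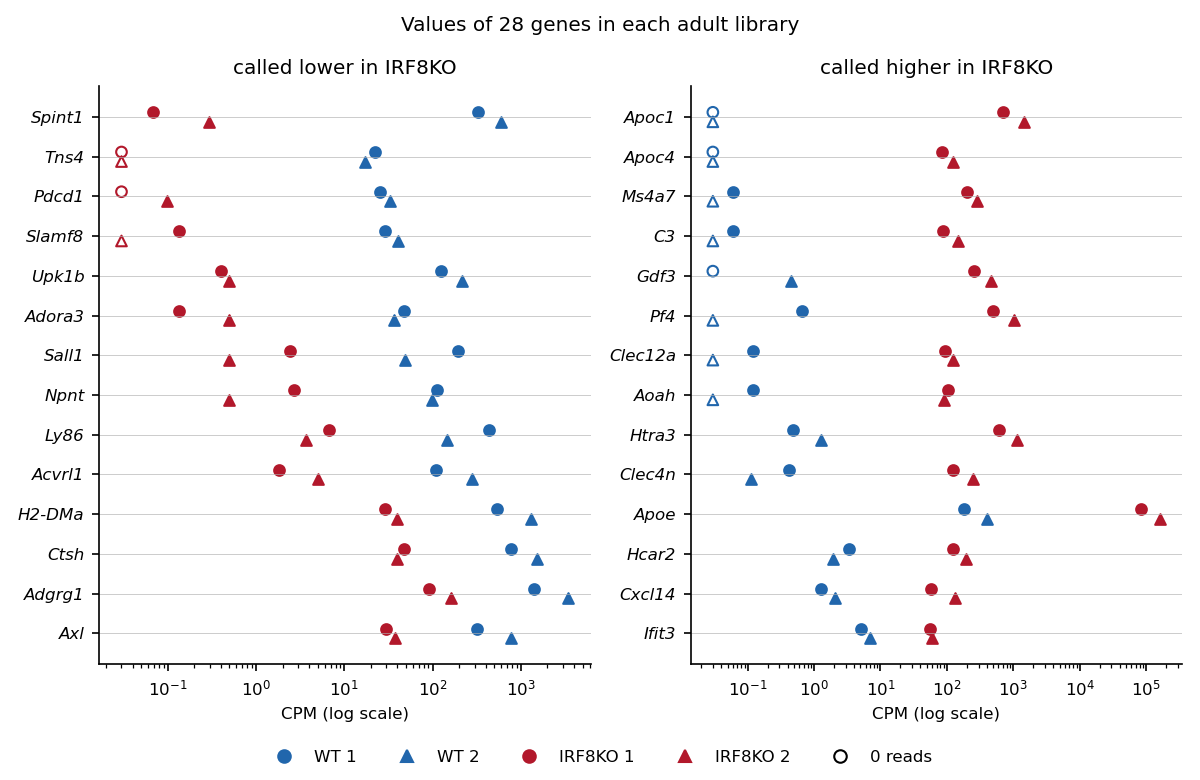
CPM of 28 called genes in each adult library on log scales, 14 lower in IRF8KO (left) and 14 higher (right), with WT in blue, IRF8KO in red, circles for replicate 1, triangles for replicate 2 and open symbols at the left edge for 0 reads. The genotypes do not overlap in any of these genes, and Apoe in IRF8KO reaches 160300 CPM.

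The homeostatic microglia list held 40 tested genes, of which 13 were lower and 3 higher. The median log2 fold change of the list was -1.03, against 0.08 over all tested genes. When each adult library was left out in turn, 9 to 12 of the 13 kept their call. Of the 3 higher ones 1 kept its call without IRF8KO replicate 2 and 1 without WT replicate 2. Sall1, a transcription factor that marks microglia among macrophages, held 196.4 and 49.0 CPM in WT and 2.44 and 0.494 CPM in IRF8KO (log2 fold change -6.32 ± 0.75, adjusted p = 0.000103). Adora3, an adenosine receptor, held 47.5 and 36.6 CPM against 0.136 and 0.494 CPM (-7.12 ± 0.56, adjusted p = 8.37e-07), with 20.9% of its exon bases shared with an overlapping gene. Npnt, which encodes a matrix ligand of integrins, held 111.7 and 99.2 CPM against 2.71 and 0.494 CPM. Adgrg1 (GPR56), an adhesion G protein-coupled receptor of yolk sac derived microglia, held 1413 and 3450 CPM against 91.5 and 162.1 CPM (-4.26 ± 0.47, adjusted p = 2.92e-05).

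Several best-known markers of this list did not pass the test. P2ry12, the ADP receptor of resting microglia, held 897.1 and 138.3 CPM in WT against 218.9 and 128.3 CPM, so the libraries overlapped (adjusted p = 0.693). Tmem119 held 6060 and 17870 CPM against 4170 and 7834 CPM (adjusted p = 0.625). Csf1r (adjusted p = 0.696) and the fractalkine receptor Cx3cr1 (adjusted p = 0.567) were not called either. Fcrls, an Fc receptor-like gene typical of microglia, was higher instead, at 2433 and 4764 CPM against 644.8 and 1224 CPM (1.95 ± 0.42, adjusted p = 0.0118). The call for Fcrls was lost without WT replicate 1 (adjusted p = 0.0829) and without IRF8KO replicate 2 (0.127).

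Receptors and inhibitors of the TGF-beta and BMP pathway moved in both directions. Acvrl1 (ALK1), a type I receptor for BMP9, held 108.3 and 280.1 CPM in WT against 1.83 and 5.04 CPM in IRF8KO (log2 fold change -5.84 ± 0.60, adjusted p = 1.45e-05). Its co-receptor Eng (endoglin) held 87.2 and 175.3 CPM against 12.2 and 19.9 CPM (-3.03 ± 0.40, adjusted p = 0.000145). Gdf3, a ligand of the family, had 4 reads in WT and held 253.2 and 463.7 CPM in IRF8KO (10.96 ± 1.00, adjusted p = 6.22e-06). Tgfbr1, the main TGF-beta type I receptor, held 995.4 and 185.4 CPM against 681.1 and 404.6 CPM, which overlap. The list counted 4 higher and 2 lower of 32 tested, with a median of 0.00. The 2 lower genes held in every fit without 1 library, while the 4 higher became 2 without IRF8KO replicate 2, 2 without WT replicate 1 and 1 without WT replicate 2.

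Of the 4 apolipoprotein genes in the cluster around Apoe, 3 were higher. Apoe, the main lipid carrier of the brain, held 184.0 and 400.5 CPM in WT and 85170 and 160300 CPM in IRF8KO (log2 fold change 8.71 ± 0.82, adjusted p = 7.83e-06). Apoc1, a small apolipoprotein encoded beside it, had no read in WT and held 709.1 and 1444 CPM in IRF8KO, at least 9029-fold higher. Apoc4 from the same cluster also had no read in WT and held 85.3 and 123.1 CPM (at least 873.9-fold higher). The cluster lies on chromosome 7 between bases 19671579 and 19699188 (mm10). The remaining gene, Apoc2, held 0.747 and 0.890 CPM in IRF8KO against no read in WT and did not pass the test (adjusted p = 0.0551). It shares 79.5% of its exon bases with an overlapping gene, so its count can miss reads from those bases.

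Other genes of lipid handling rose with them. Ch25h, the enzyme that makes 25-hydroxycholesterol, had 1 read in WT and held 33.8 and 37.4 CPM in IRF8KO (ratio 887.3, exact 95% counting interval 158.8 to 35080). Pltp, a phospholipid transfer protein, held 66.0 and 113.1 CPM against 3.83 and 4.12 CPM (4.49 ± 0.61, adjusted p = 0.000204). Acaca, the rate-limiting enzyme of fatty acid synthesis, held 93.0 and 72.0 CPM against 9.62 and 9.04 CPM (3.14 ± 0.52, adjusted p = 0.00128). In the list of apolipoproteins and lipid handling 8 of 31 tested genes were higher and 0 lower, and 6 to 8 of those 8 kept their call when each library was left out. Without WT replicate 1 the list also gave 1 lower call. Of the 22 genes of cholesterol synthesis 0 were called by edgeR (4 had an unadjusted p below 0.05), 0 by limma voom and 1 by DESeq2, and the list's median was 0.11.

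The disease-associated microglia list, which describes the state seen around amyloid and dying neurons, split between the genotypes. Of 38 tested members 10 were higher and 4 lower, with a median log2 fold change of 0.04. Gpnmb, a glycoprotein of lipid-laden phagocytes, had 2 reads in WT and held 15.1 and 20.97 CPM in IRF8KO (ratio 219.8, exact 95% counting interval 60.5 to 1821). Csf1, the ligand of Csf1r, held 40.9 and 71.6 CPM against 5.30 and 10.2 CPM (2.87 ± 0.40, adjusted p = 0.00026). Cox6a2, a heart and muscle type subunit of cytochrome oxidase, held 46.4 and 79.9 CPM against 1.34 and 3.09 CPM (4.86 ± 0.68, adjusted p = 0.000259). In the other direction, Axl, a receptor for apoptotic cells, held 29.5 and 37.5 CPM in IRF8KO against 316.2 and 769.0 CPM in WT (-4.02 ± 0.56, adjusted p = 0.000247). Serpine2, a protease inhibitor, held 54.5 and 60.6 CPM against 501.5 and 543.8 CPM (-3.18 ± 0.44, adjusted p = 0.000229).

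Other members usually named with that state were not called. Spp1 (osteopontin) stayed below 3 CPM in all 4 libraries, Lpl (lipoprotein lipase) held 28.1 and 9.16 CPM in WT against 13.6 and 16.1 CPM, and Trem2, the lipid-sensing receptor, held 1509 and 4221 CPM against 1404 and 2458 CPM. Clec7a (dectin-1) held 126.6 and 61.1 CPM in IRF8KO against 30.7 and 7.67 CPM in WT without passing the test (2.28 ± 0.78, adjusted p = 0.194). The 10 higher members became 6 without WT replicate 1 and 6 without IRF8KO replicate 2, and the 4 lower became 2 without IRF8KO replicate 1.

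**Figure D3:**
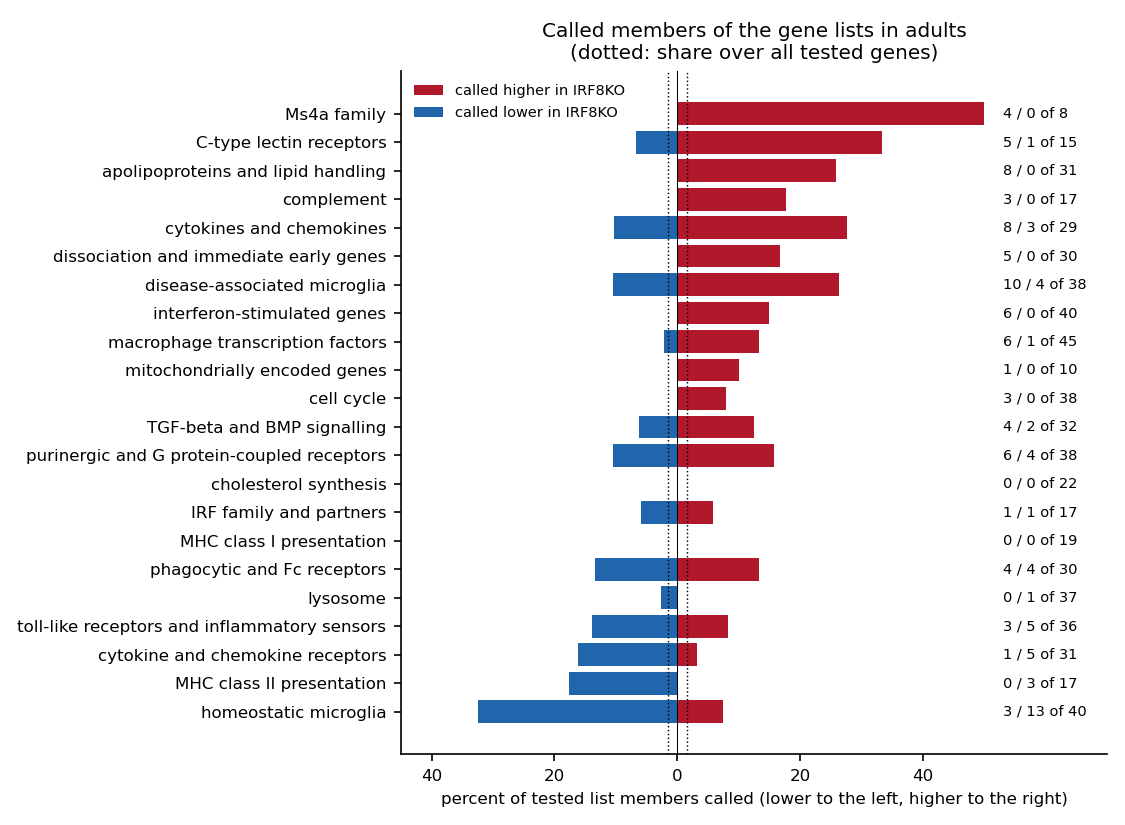
Percent of the tested members of each of 22 gene lists called higher (red, to the right) or lower (blue, to the left) in adult IRF8KO microglia, with the counts at the right edge. Dotted lines mark the shares over all tested genes, 1.65% higher and 1.49% lower; the Ms4a family reaches 4 of 8 higher and the homeostatic list 13 of 40 lower.

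Among complement genes the effector and its receptor were higher while the abundant C1q genes were not called. C3, the central complement component, had 1 read in the WT libraries and held 87.1 and 145.0 CPM in IRF8KO (ratio 2784, exact 95% counting interval 499.3 to 110000). C3ar1, the receptor for its fragment C3a, held 433.1 and 463.2 CPM against 105.7 and 69.8 CPM (2.35 ± 0.32, adjusted p = 0.000206). C1qb held 3263 and 6171 CPM against 6924 and 19470 CPM and was not called (adjusted p = 0.326). Of 17 tested complement genes 3 were higher and 0 lower. The third higher gene, Cd59a, lost its call in every fit without 1 library. It also lost it with no filter, limma voom, the replicate block and the adult libraries alone.

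C-type lectins and the Ms4a family of membrane proteins leaned to IRF8KO. Clec12a, an inhibitory lectin that binds uric acid crystals, had 2 reads in WT and held 94.1 and 121.8 CPM in IRF8KO (ratio 1326, exact 95% counting interval 366.7 to 10950). Clec4n (dectin-2), a receptor for fungal mannans, held 124.2 and 250.1 CPM against 0.426 and 0.114 CPM (9.21 ± 1.13, adjusted p = 7.41e-05). Mrc2, an endocytic collagen receptor, went the other way, from 26.3 and 61.4 CPM to 0.339 and 1.78 CPM (-5.44 ± 0.75, adjusted p = 0.000221). Ms4a7 had 1 read in WT and held 204.5 and 283.6 CPM (ratio 5957, exact 95% counting interval 1069 to 235300), and Ms4a4a and Ms4a6c rose too, the last with 53.1% of its exon bases shared with another gene. Of the lectins 5 of 15 were higher and 1 lower (median 2.28), and of the Ms4a genes 4 of 8 were higher and 0 lower. Among the higher lectins, Clec4a1 and Colec12 lost their calls without WT replicate 1. Mrc1 lost its call without WT replicate 2 and without IRF8KO replicate 1. Ms4a6b, also among the higher genes, lost its call in every fit without 1 library.

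Of the genes of MHC class II presentation, 3 that encode peptide-loading factors were lower. H2-DMa, a chain of the peptide exchange factor DM, held 531.4 and 1294 CPM in WT against 28.7 and 39.4 CPM in IRF8KO (-4.75 ± 0.60, adjusted p = 0.000103). H2-Ob, a chain of the DM inhibitor DO, held 53.8 and 92.2 CPM against 11.9 and 13.1 CPM (-2.54 ± 0.45, adjusted p = 0.00243). H2-DMb2, a gene for the other DM chain, held 25.3 and 31.7 CPM against 3.87 and 6.13 CPM (-2.51 ± 0.50, adjusted p = 0.00644). That call was lost without IRF8KO replicate 1, where the log2 fold change was -2.22. H2-DMb1, which also encodes that DM chain, was tested and not called. The invariant chain Cd74 held 72.6 and 134.0 CPM against 88.3 and 115.6 CPM, and H2-Aa, which encodes a class II surface chain, 11.99 and 39.96 CPM against 26.3 and 29.6 CPM, with both genotypes overlapping. In all, 3 of 17 tested class II genes were lower and 0 higher (median -0.96), and 0 of 19 class I genes were called by edgeR, limma voom or DESeq2 (median -0.37, 1 with an unadjusted p below 0.05). Ctsh, a lysosomal cysteine protease, was the 1 lysosome gene of 37 called, at 47.9 and 39.9 CPM against 768.0 and 1535 CPM (-4.71 ± 0.51, adjusted p = 2.25e-05). The lysosome count became 3 lower without WT replicate 1, 2 without WT replicate 2 and 7 with DESeq2.

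Interferon-stimulated genes were called in 1 direction. Of 40 tested 6 were higher and 0 lower, and the median log2 fold change was 1.60. Rtp4, a receptor chaperone induced by type I interferon, held 62.6 and 87.7 CPM against 5.48 and 6.41 CPM (3.66 ± 0.38, adjusted p = 1.72e-05) and kept its call in every fit without 1 library. Ifit3, which binds the antiviral factor IFIT1, held 55.6 and 59.7 CPM against 5.17 and 6.98 CPM (3.25 ± 0.62, adjusted p = 0.00449). Its call was lost without WT replicate 1 (adjusted p = 0.0512) and without WT replicate 2 (0.0671). Oas2, an enzyme that senses double-stranded RNA, held 40.05 and 39.3 CPM against 0.548 and 0.114 CPM and lost its call without WT replicate 2 (adjusted p = 0.066). Isg15, a ubiquitin-like modifier, held 6.92 and 18.6 CPM against 1.71 and 4.81 CPM without a call (adjusted p = 0.129). Without WT replicate 2 there were 3 calls in the list, 1 of the 6 among them. With other settings more members were called higher and 0 lower: 16 with no filter on low counts, 13 with DESeq2 and 11 with the adult libraries alone. Within the IRF family Irf4 was higher (6.99 and 14.8 CPM against 1.52 and 0.343 CPM, adjusted p = 0.00736), which did not hold without WT replicate 2 (0.137) or IRF8KO replicate 2 (0.108). Batf3, which works with IRF8 in dendritic cells, was lower at 0.611 and 1.78 CPM against 29.9 and 52.4 CPM (-5.13 ± 0.69, adjusted p = 0.000178).

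The promoters of called genes were searched for the 2 sequence patterns that IRF8 is known to bind, and 4 that hold one are shown so that the letters can be seen. The interferon-stimulated response element was taken as GAAANNGAAA and the ETS-IRF composite element as GGAANNGAAA, on both strands. A window can hold both, and they can overlap. Windows run from 250 bases before to 50 after the transcription start, in RefSeq sequences of GRCm38.p6 (mm10), and capitals mark the match. Slamf8 (chr1:172590519-172590818, minus strand) and Pdcd1 (chr1:94052504-94052803, minus strand) were lower in IRF8KO, Aoah (chr13:20793863-20794162, plus strand) and Ifit3 (chr19:34583279-34583578, plus strand) were higher. Slamf8, Aoah and Ifit3 hold the response element and Pdcd1 the composite element, each read on the opposite strand, and Ifit3 holds it in 2 places.
Slamf8: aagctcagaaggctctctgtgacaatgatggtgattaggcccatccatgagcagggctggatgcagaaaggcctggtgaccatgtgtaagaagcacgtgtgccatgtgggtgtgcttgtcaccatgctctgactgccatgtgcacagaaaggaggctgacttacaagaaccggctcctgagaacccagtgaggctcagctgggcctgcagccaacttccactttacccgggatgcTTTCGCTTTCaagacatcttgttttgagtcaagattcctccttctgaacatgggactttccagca
Pdcd1: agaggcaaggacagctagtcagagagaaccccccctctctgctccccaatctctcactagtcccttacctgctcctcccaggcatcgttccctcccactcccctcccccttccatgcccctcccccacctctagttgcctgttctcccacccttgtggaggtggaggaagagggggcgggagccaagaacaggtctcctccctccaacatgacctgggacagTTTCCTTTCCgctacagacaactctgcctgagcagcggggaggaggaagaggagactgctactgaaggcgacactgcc
Aoah: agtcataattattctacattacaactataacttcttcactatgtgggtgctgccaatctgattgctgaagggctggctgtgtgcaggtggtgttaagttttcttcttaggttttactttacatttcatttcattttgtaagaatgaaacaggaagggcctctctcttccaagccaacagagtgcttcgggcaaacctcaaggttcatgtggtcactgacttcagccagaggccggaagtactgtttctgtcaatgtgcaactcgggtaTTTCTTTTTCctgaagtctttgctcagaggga
Ifit3: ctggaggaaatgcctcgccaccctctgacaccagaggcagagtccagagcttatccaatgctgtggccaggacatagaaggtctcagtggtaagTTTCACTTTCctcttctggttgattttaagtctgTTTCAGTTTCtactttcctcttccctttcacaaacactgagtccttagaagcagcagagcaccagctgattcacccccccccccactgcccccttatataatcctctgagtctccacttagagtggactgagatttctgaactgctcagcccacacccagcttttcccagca

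Matches were uncommon in both directions. Of 221 higher genes with a window 7.69% held the response element and 3.62% the composite element. Of 208 lower genes with a window 4.33% and 5.77% did. Over all 27025 genes with a window the shares were 3.99% and 3.16%. Either element was held by 6.82% of all genes with a window and by 6.37% of the tested genes with one. The shares were 10.4% for the higher and 9.62% for the lower genes. Among the 120 called genes of the named set, 89 had a window and 12 of those held a match to either element. That set of 179 genes includes 26 named outside the rule. A match is a run of letters and not a measured site, and no binding was measured in these samples.

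Chemokines, cytokines and their receptors were called in both directions. Pf4 (CXCL4), a chemokine of platelets and some macrophages, held 502.6 and 1015 CPM in IRF8KO against 0.670 and 0 CPM (10.84 ± 0.96, adjusted p = 4.28e-06). Cxcl14, a chemokine of epithelia and brain, held 57.1 and 131.9 CPM against 1.28 and 2.06 CPM (5.84 ± 0.66, adjusted p = 3.25e-05). Ackr3, a scavenging receptor for CXCL12, held 28.5 and 73.6 CPM against 0.365 and 1.26 CPM (6.07 ± 0.60, adjusted p = 9.2e-06). Il2rg, the shared chain of the interleukin 2 receptor family, held 17.04 and 23.7 CPM against 0.487 and 0.458 CPM (5.39 ± 0.59, adjusted p = 2.61e-05). Tnfrsf17 (BCMA), a TNF receptor family member known from plasma cells, was lower at 0.339 and 0.0989 CPM against 12.1 and 27.3 CPM (-6.33 ± 0.70, adjusted p = 5.08e-05).

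Of 29 cytokines tested 8 were higher and 3 lower. Without IRF8KO replicate 2 the 8 became 5, and without IRF8KO replicate 1 the 3 became 0. Of 31 receptors tested in their list, which holds neither Ackr3 nor Il2rg, 1 was higher and 5 lower. The higher one was Cxcr2, at 0.543 and 0.989 CPM in IRF8KO and 0 CPM in WT. The 1 higher became 0 in each fit without 1 library, and the 5 became 2 without WT replicate 1, 1 without IRF8KO replicate 1 and 2 without IRF8KO replicate 2. G protein-coupled receptors added Hcar2, the niacin and ketone body receptor (123.7 and 194.7 CPM against 3.35 and 1.95 CPM, adjusted p = 9.2e-06), and Ptger3, a prostaglandin E2 receptor (74.0 and 106.4 CPM against 0.974 and 0 CPM, adjusted p = 1.49e-05). Their list counted 6 higher and 4 lower of 38.

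Toll-like receptors and their helpers were called lower more often than higher, 5 against 3 of 36 tested, a difference that was not tested. Ly86 (MD-1), the partner of RP105 in sensing lipopolysaccharide, held 6.72 and 3.66 CPM in IRF8KO against 440.7 and 144.2 CPM (-5.80 ± 0.57, adjusted p = 9.2e-06). Trem1, an activating receptor of neutrophils and monocytes, held 16.2 and 37.8 CPM against no read in WT (at least 226.5-fold higher). Aoah, an enzyme that inactivates lipopolysaccharide, held 104.9 and 89.4 CPM against 2 reads in WT (ratio 1240, exact 95% counting interval 343.0 to 10250). Some of the 5 lower and some of the 3 higher genes lost their call in each fit without 1 library. Aoah is not a member of that list.

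Immediate early genes, which tissue dissociation can raise, were also called higher, 5 of 30 tested, with a median log2 fold change of 1.01. Ier2 held 74.9 and 188.3 CPM in IRF8KO against 10.7 and 30.1 CPM (2.70 ± 0.57, adjusted p = 0.0106), and that call was lost without WT replicate 1 (0.0974) and without IRF8KO replicate 2 (0.15). The count of 5 became 8 without IRF8KO replicate 1, 1 without IRF8KO replicate 2, 3 without WT replicate 1 and 2 without WT replicate 2. Junb, the most abundant of the list, held 185.3 and 466.9 CPM against 141.0 and 312.0 CPM and was not called. The part of dissociation in the genotype differences was not tested. Of 45 macrophage transcription factors 6 were higher and 1 lower. The 6 higher became 0 without IRF8KO replicate 2, 2 without WT replicate 1 and 3 without WT replicate 2.

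Phagocytic and Fc receptors split evenly, 4 higher and 4 lower of 30 tested (median -0.37). Cd300ld, an activating receptor of the CD300 family, had no read in WT and held 36.0 and 41.2 CPM in IRF8KO (at least 323.8-fold higher). Stab1, a scavenger receptor, held 1142 and 1733 CPM against 249.4 and 343.8 CPM (2.28 ± 0.40, adjusted p = 0.00226). The 4 higher became 2 without IRF8KO replicate 2 or without either WT library, and the 4 lower became 1 without IRF8KO replicate 1. Of 38 cell cycle genes 3 were higher and 0 lower, with a median of 0.00, and Ccnd2 (cyclin D2) led them at 98.6 and 124.2 CPM against 10.1 and 27.3 CPM (2.58 ± 0.46, adjusted p = 0.00285). These 3 became 1 without WT replicate 2 and 1 without IRF8KO replicate 2, and 1 gene was called lower without WT replicate 1. Of 10 mitochondrially encoded genes 1 was higher, and 0 were without WT replicate 2 or without IRF8KO replicate 2.

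Markers of border-associated macrophages had the largest median difference of the 12 cell type lists, 6.02 on the log2 scale, or 5.19 with genes at 0 reads put at their bound. Of 13 tested members 11 were higher in IRF8KO and 0 lower, 9 to 11 when each library was left out. The list's summed level was 268.3 and 347.4 CPM in WT and 2548 and 3822 CPM in IRF8KO. Beside Ms4a7, Pf4, Clec12a and Clec4n these were led by Siglec1 (CD169), a sialic acid receptor, at 80.6 and 134.9 CPM against 5.11 and 1.49 CPM (4.97 ± 0.59, adjusted p = 4.9e-05). Dab2, an endocytic adaptor, held 211.5 and 157.5 CPM against 4.38 and 1.03 CPM (6.02 ± 0.76, adjusted p = 9.79e-05). Mrc1, the mannose receptor, held 166.1 and 94.5 CPM against 7.49 and 0.687 CPM (4.93 ± 1.03, adjusted p = 0.00936) and lost its call without WT replicate 2 (0.124) and IRF8KO replicate 1 (0.0634). Cd163, the haemoglobin scavenger receptor, held 6.79 and 9.40 CPM against no read in WT (at least 67.9-fold higher). Other defining markers of these cells were at or near 0 in IRF8KO. Lyve1, a hyaluronan receptor, held 0.475 and 0 CPM, and the folate receptor Folr2 held 0.204 and 0 CPM. The lectin Cd209f had no read in any adult library. Folr2 shares 63.1% of its exon bases with an overlapping gene, so its count can miss reads from those bases.

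Most monocyte, neutrophil and T cell markers were at or near 0, with a few exceptions. The monocyte list summed to 13.5 and 20.8 CPM in WT and 101.8 and 102.2 CPM in IRF8KO, with 2 of 8 tested members higher. Itga4, an integrin chain of circulating cells, held 64.1 and 32.2 CPM against 0.731 and 1.49 CPM (5.49 ± 0.83, adjusted p = 0.000574). Nr4a1, an immediate early gene and nuclear receptor, held 22.95 and 56.6 CPM against 2.62 and 7.90 CPM (2.93 ± 0.72, adjusted p = 0.0302). Its call was lost without WT replicate 1, without WT replicate 2 and without IRF8KO replicate 2, which left 1 call in the list. Ly6c2 had no read in any adult library. Neutrophil markers Ly6g, Elane and Mpo had none either, and S100a8 held 3.46 and 0.0989 CPM in IRF8KO. Csf3r, the receptor for granulocyte colony-stimulating factor, was the exception in that list at 477.5 and 727.3 CPM in WT and 617.7 and 965.7 CPM in IRF8KO, and was not called. Of 5 neutrophil genes tested 1 was higher, and 0 were in each fit without 1 library. T cell receptor and CD3 genes held at most 0.458 CPM in any library, so Il7r stood alone in that list.

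B cell genes were lower in IRF8KO, 4 of 5 tested, although other markers of these cells were near 0. Ighm, the immunoglobulin mu heavy chain gene, held 331.1 and 604.3 CPM in WT against 39.9 and 68.6 CPM in IRF8KO (-3.11 ± 0.41, adjusted p = 0.00016). Cd79b, a signalling chain of the B cell receptor, held 47.0 and 79.9 CPM against 3.73 and 10.5 CPM (-3.17 ± 0.51, adjusted p = 0.00119). Cd79a, the other signalling chain of that receptor, held 0 and 0.114 CPM in WT and 0.475 and 0.791 CPM in IRF8KO, while the light chain gene Igkc had no read in any adult library. The 4 calls became 2 without IRF8KO replicate 1. Dendritic cell markers gave 1 higher and 2 lower of 11 tested, the lower ones including Siglech, a gene that microglia also express, whose call was lost without IRF8KO replicate 1 (adjusted p = 0.148). The 2 lower became 1 without either IRF8KO library, and the 1 higher became 0 without WT replicate 2.

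Neuronal genes, which measure carried-over brain RNA, did not separate the adult genotypes. Of 16 tested 0 were called by edgeR, limma voom or DESeq2, 0 had an unadjusted p below 0.05, and the list's median log2 fold change was 0.11. Their summed level was 1134 and 2121 CPM in WT and 1968 and 1487 CPM in IRF8KO. At P9 14 of the same 16 genes were lower in IRF8KO and at P14 15 were higher. With the mean level of these genes as a covariate, chosen after seeing the data, 706 genes were called in adults, 574 of the 575 among them. Astrocyte genes gave 1 call of 12, the glutamate transporter Slc1a3, at 25.4 and 13.9 CPM against 548.1 and 207.8 CPM (-4.26 ± 0.50, adjusted p = 4.38e-05), with Gfap at 5.11 to 11.2 CPM and Aqp4 at 0.692 to 1.70 CPM in the 4 libraries. The oligodendrocyte lineage gave 1 higher, Cspg4 (NG2) at 61.2 and 115.8 CPM against 4.14 and 8.36 CPM (3.84 ± 0.63, adjusted p = 0.00124), and 1 lower of 12. The lower one, Cnp, a myelin enzyme, lost its call without WT replicate 2 (adjusted p = 0.131) and without IRF8KO replicate 1 (0.204), and without WT replicate 1 the list had 2 lower calls. Endothelial and mural (10 tested) and erythroid (7 tested) lists had 0 calls by edgeR, limma voom or DESeq2, with 2 and 0 genes at an unadjusted p below 0.05.

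**Figure D4:**
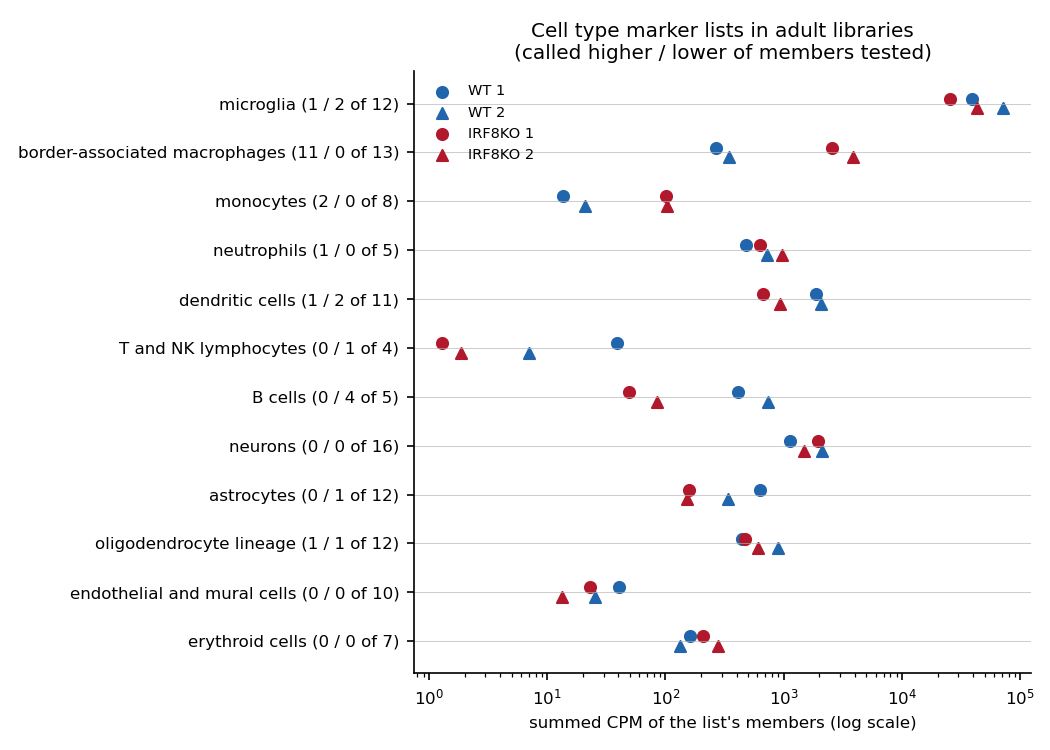
Summed CPM of 12 cell type marker lists in each adult library on a log scale, with WT in blue and IRF8KO in red, circles for replicate 1 and triangles for replicate 2, and the counts called higher and lower beside each name. Border-associated macrophage sums lie at 2548 and 3822 CPM in IRF8KO against 268.3 and 347.4 CPM in WT, B cell sums lie lower in IRF8KO, and neuron sums interleave.

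The adult differences were then set beside those at P9 and P14, where the same model called 15.6% and 34.0% of genes. Of the 575 adult calls, 423 (73.6%) were called in the same direction at P9, which is 14.8% of the P9 calls, and 3 in the opposite direction. At P14 480 (83.5%) were called the same way, 7.71% of the P14 calls, and 12 the opposite way. With the mean level of neuronal genes as a covariate, the P9 calls went from 2855 to 292 and the P14 calls from 6222 to 263. The overlap with the adult calls was not recounted under that covariate. Calls in the same direction at both ages numbered 398. For 57 genes, 37 higher and 20 lower in adults, neither earlier age gave a call, and 31 of these also had a called difference between the adult effect and that at P9 or P14. The 3 ages have no library in common, but the fit shares 1 estimate of spread among them. Adult titles carry batch number 2, so a difference between ages and a difference between batches cannot be told apart.

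The genotype effect itself differed between adults and P14 in 1504 genes (8.22%) and between adults and P9 in 549 genes (3.00%). Neuronal genes also moved with genotype in opposite directions at those ages, as given above, and with their mean level as a covariate the counts became 8 and 4. The part of neuronal RNA in the differences between ages was not tested further. They also moved with single libraries. Without IRF8KO replicate 2 the P14 count became 149, without IRF8KO replicate 1 it became 647 and without WT replicate 2 it became 949. The P9 count became 70 without WT replicate 1, 148 without IRF8KO replicate 1 and 276 without IRF8KO replicate 2.

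Genes called in adults whose effect differed from both earlier ages numbered 44, of which 33 were higher and 11 lower in adult IRF8KO. In 29 of the 33 both adult WT libraries lay below all 6 earlier WT libraries, and in 10 of the 33 both adult IRF8KO libraries lay above all earlier IRF8KO libraries. Apoe shows the more frequent form. Its WT mean went from 12920 ± 2945 CPM (SD, n = 3) at P9 to 7506 ± 1440 CPM (SD, n = 3) at P14 and 292.2 ± 153.1 CPM (SD, n = 2) in adults. The IRF8KO means were 76020 ± 20130 CPM (SD, n = 3), 135800 ± 86330 CPM (SD, n = 3) and 122700 ± 53100 CPM (SD, n = 2). The level in IRF8KO adults thus lay within the range of the younger IRF8KO libraries, and the difference between genotypes was wider in adults by 4.54 ± 0.80 on the log2 scale than at P14 (adjusted p = 0.0035).

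Apoc1 and Htra3, a secreted serine protease that can act on TGF-beta signals, had the same form. Apoc1 held 10.6 to 14.9 CPM in WT at P9 and no read in WT adults. Htra3 averaged 54.7 ± 12.8 CPM (SD, n = 3) in WT at P14 and held 0.487 and 1.26 CPM in WT adults, against 611.1 and 1156 CPM in IRF8KO adults (10.07 ± 0.68, adjusted p = 4.31e-07). C3 combined both forms, since WT adults held 0.0609 and 0 CPM against 16.6 ± 6.47 CPM (SD, n = 3) at P9, and IRF8KO adults, at 87.1 and 145.0 CPM, lay above all 6 younger IRF8KO libraries. Fcrls held 7672 ± 1496 CPM (SD, n = 3) in WT at P14 and 934.6 ± 409.8 CPM (SD, n = 2) in WT adults, while the IRF8KO means were 4742 ± 594.0 CPM (SD, n = 3) and 3598 ± 1648 CPM (SD, n = 2).

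Among genes lower in adults, Trpv4, a calcium channel gated by warmth and osmotic pressure, was raised in WT adults. It held 37.2 and 95.2 CPM there, against 0.882 and 0.0989 CPM in IRF8KO (-6.95 ± 0.95, adjusted p = 0.000207), while no younger library of either genotype exceeded 7.87 CPM. Ighm and Ctsh differed less between genotypes in adults than before. Ighm averaged 2.02 ± 0.619 CPM (SD, n = 3) in IRF8KO at P14 and held 39.9 and 68.6 CPM in IRF8KO adults, and Ctsh averaged 8.27 ± 3.96 CPM (SD, n = 3) and held 47.9 and 39.9 CPM. The WT means of Ighm were 598.0 ± 156.2 CPM (SD, n = 3) at P14 and 467.7 ± 193.2 CPM (SD, n = 2) in adults. With the neuronal covariate 1 of the 44 genes, a predicted gene, kept both calls, and the adjusted p of Apoe against P14 became 0.127, that of Apoc1 0.0363, that of Htra3 0.0424 and that of C3 0.0809. Between 17 and 26 of the 44 kept both calls when each adult library was left out.

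**Figure D5:**
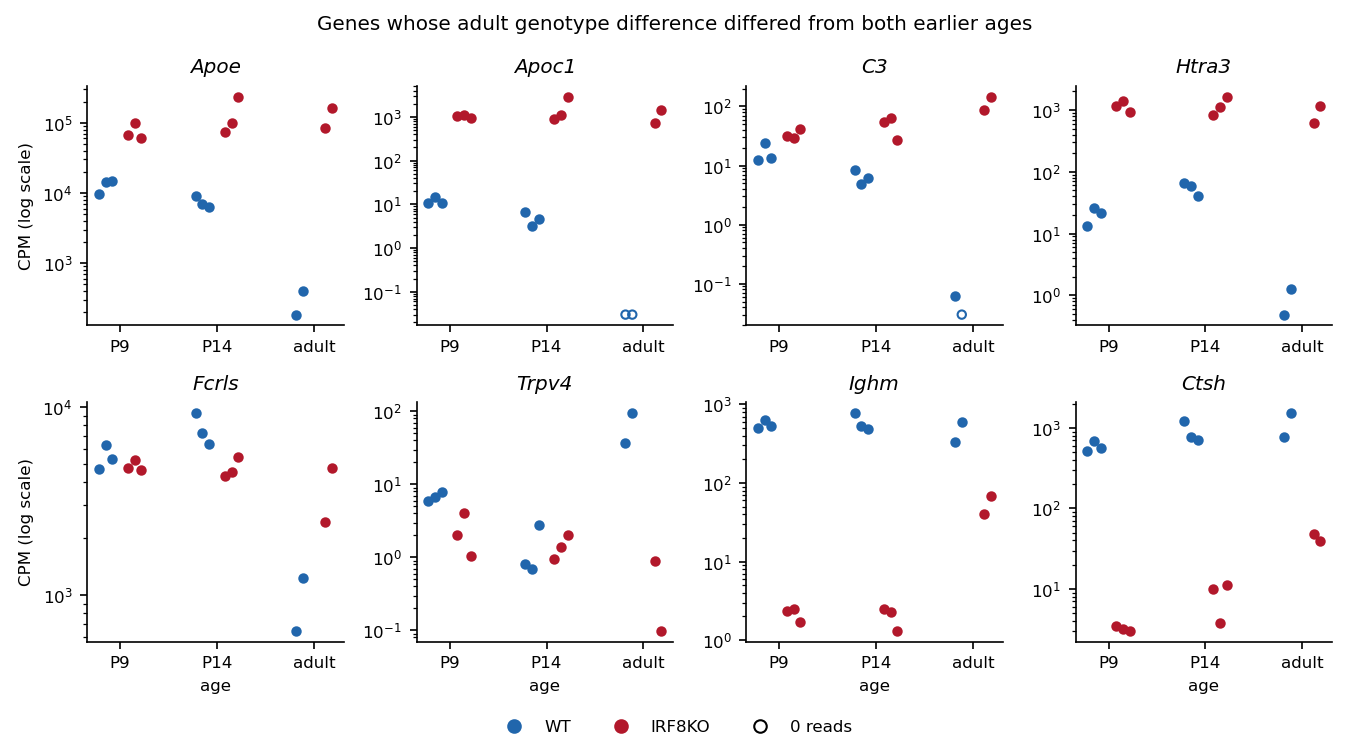
CPM of 8 genes in all 16 libraries by age on log scales, 1 point per library, with WT in blue, IRF8KO in red and open symbols at the lower edge for 0 reads. In Apoe, Apoc1, C3, Htra3 and Fcrls the adult WT points lie below the younger WT points, in Trpv4 they lie above, and in Ighm and Ctsh the adult IRF8KO points lie above the younger IRF8KO points.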

How the data were processed

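Microglia were sorted into TRIzol, and total RNA went through SMART-Seq v4 cDNA synthesis with 15 amplification cycles and Nextera XT libraries, per the labels' protocols, which mark no strand. Each library has a deposited table of whole read counts by gene, laid out like the gene counts of STAR. The submitters' processing notes list the build mm10 and, as the tools the authors used, Picard 2.17.11, STAR 2.5.2b, Subread, featureCounts and bcl2fastq, with no role given. The unstranded counts were used, 4 entries naming no gene were left out (34.0% to 47.0% of reads in adult libraries), and all 55536 identifiers matched GENCODE mouse release 21. Genes and antisense partners cannot be told apart.

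With edgeR 4.0.16 and limma 3.58.1 (R 4.3.3), counts of all 16 libraries were scaled by TMM, 18295 genes passed filterByExpr, and a quasi-likelihood fit with 6 groups (10 residual degrees of freedom) gave the contrasts. P-values were adjusted by Benjamini-Hochberg over all tested genes, with calls below 0.05. Each SE was derived from the F statistic. A group with 0 reads was given 3 reads for a lower bound, and one with 1 to 3 reads a ratio with an exact 95% interval. The scripts were tested on simulated data. Alternatives were DESeq2 1.42.0, limma voom, other scaling, no filter, a replicate block, covariates and leaving out each library.

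The 22 gene lists, 12 cell type lists and the members were chosen with earlier results of these data known. Genes were named by rule: Irf8, the 15 largest changes each way among called genes that did not overlap, with at least 10 CPM in the higher group, up to 6 called and the 2 most abundant members per list, and 6 each way per difference between ages. The text describes those whose roles are known. P2ry12, Spp1, Lpl, Trem2, Clec7a, Apoc2, Cd74, H2-Aa, Isg15, Il2rg, Cd163, Lyve1, Folr2, Cd209f, Cd79a and the gene families of the closing section were named after their values were seen. Protein sequences were not used here.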

Additional observations from a re-analysis of the deposited data

Results flagged for a closer look

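For 16 genes named in the text, the log2 difference between genotypes in adults was tested against those at P9 and at P14 and differed from both at an adjusted p below 0.05. The values here are the adult log2 fold change minus that at P14. The difference was wider upwards in adults for Apoe by 4.54, Htra3 by 5.62, Ptger3 by 5.63, Ackr3 by 4.85, Il2rg by 4.50, Cox6a2 by 3.56 and Fcrls by 2.64. For Apoc1 (8.32), C3 (8.29) and Ifitm2 (7.41) the WT adults had 0 or 1 read in all, so the fitted value depends on the prior count and is no bound. For Trpv4 (-6.94) and Lrrc3 (-2.85) the difference lay further downwards in adults than at the earlier ages. In both genes the adult WT libraries lay above all earlier WT libraries. The IRF8KO mean of Lrrc3 was 124.3 CPM at P9, 293.3 CPM at P14 and 250.9 CPM in adults. In Ighm (5.07) and Ctsh (2.04) IRF8KO adults were still lower than WT, by less than at P14. Ccnd2 (-2.26) was higher in IRF8KO at P14 and in adults, by less in adults, and was not called at P9. Clec7a (-10.84) was called higher at P9 and P14 and was not called in adults. Neuronal genes moved with genotype at both earlier ages, and with their mean level as a covariate 0 of the 16 genes kept both calls. Apoc1, Htra3 and Clec7a kept the call against P14 alone and C3 that against P9 alone. Adult libraries share batch number 2, so age and batch number are not separable here.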

How the results depend on the processing

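Of the named genes, 107 were followed through the alternatives, and none of them reversed direction in adults under any run that tested it. Among these 107, 84 were called in adults and 67 kept their call under every alternative. The whole named set holds 120 called genes, so these counts do not cover every call named in the text. The adult count of 575 calls became 906 with DESeq2 and 930 with the share of reads outside genes as a covariate. It stayed within 1.5 times with RLE size factors (589), no filter (827), limma voom (643), only the 4 adult libraries (547, 399 of them shared) and the neuronal covariate (706), and it ran from 320 to 605 without 1 library. Counts for some lists moved by more than 1.5 times. With no filter there were 6 lower genes of class II presentation, 8 higher C-type lectins, 10 higher immediate early genes, 7 lower phagocytic and Fc receptors, 7 lower G protein-coupled receptors, 4 lower lysosome genes and 2 lower complement genes. With the share of reads outside genes as a covariate there were 12 higher immediate early genes, 11 higher interferon-stimulated genes, 10 higher G protein-coupled receptors, 5 higher complement genes and 4 lower lysosome genes. With only the adult libraries there were 8 higher C-type lectins, 9 higher immediate early genes, 2 higher TGF-beta genes and 3 lower toll-like receptor genes. Fcrls, Stab1, Siglech and Lrrc3 were among the genes that lost their call there. DESeq2 gave 5 lower class II genes, and the replicate block gave 2 higher genes each among TGF-beta genes, macrophage transcription factors and phagocytic receptors and 3 lower cytokine receptors.

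The count of 1504 for adults against P14 became 2365 with DESeq2, 686 with the replicate block and 8 with the neuronal covariate, and ran from 149 to 1396 without 1 library. The count of 549 for adults against P9 became 1286 with no filter, 1257 with DESeq2, 1089 with limma voom, 193 with the replicate block and 4 with the neuronal covariate, and ran from 70 to 407 without 1 library. The cause of these shifts was not tested. Replicate numbers are shared by the adult groups, but the labels do not say that a number marks a batch. The deviations from the group mean of WT replicate 1 and IRF8KO replicate 1 correlated at 0.304. With 2 libraries per group those of replicate 2 mirror them, so there is 1 value and no separate check by a second pair. With the replicate number as a block 456 genes were called in adults, 430 of them shared. A library left as the only one of its group is assumed to vary like the others.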

Other observations

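Some gene families outside the lists were singled out after their values were seen. The Gimap genes encode GTPases of the immunity-associated family and lie together on chromosome 6 between bases 48647234 and 48770851 (mm10). Of 8 Gimap genes 4 were tested, and all 4 of those were lower in adult IRF8KO. Gimap6 held 19.6 and 24.6 CPM in WT against 0.339 and 0.396 CPM, and Gimap1 held 14.3 and 13.9 CPM against 0 and 0.0989 CPM, with 36.0% of its exon bases shared with another gene. Gimap5 (2.07 and 0.687 CPM) and Gimap9 (2.19 and 0.801 CPM) had no read in IRF8KO. The calls for Gimap5 and Gimap9 were lost without WT replicate 1 (adjusted p = 0.0725 and 0.11), without IRF8KO replicate 1 (0.144 and 0.247) and without IRF8KO replicate 2 (0.099 and 0.176), and that for Gimap6 without IRF8KO replicate 1 (0.0659) and replicate 2 (0.0528).

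The CD300 family of paired receptors on chromosome 11 gave 4 higher and 0 lower of 8 tested. Among the 4, Cd300e lost its call in every fit without 1 library. Cd300lf lost its call when either WT library or IRF8KO replicate 2 was left out. Cd300lb, an activating member, held 45.9 and 100.7 CPM in IRF8KO against 0.122 and 1.60 CPM in WT (log2 fold change 6.58 ± 0.75, adjusted p = 3.61e-05). Its inhibitory neighbour Cd300a held 228.8 and 397.9 CPM against 195.1 and 303.2 CPM and was not called. Pilra, an inhibitory receptor for sialylated ligands, held 184.0 and 406.9 CPM against 9.62 and 12.7 CPM (4.73 ± 0.48, adjusted p = 1.13e-05). Within the SLAM family 3 of 9 tested genes were lower, Cd84 with Slamf6 and Slamf8, and 1 was higher. The call for Cd84 was lost without WT replicate 1 (adjusted p = 0.0963), IRF8KO replicate 1 (0.0897) and IRF8KO replicate 2 (0.176). The higher one was Cd244a (2B4), at 70.7 and 61.1 CPM against 1.83 and 2.86 CPM (4.83 ± 0.81, adjusted p = 0.0016).

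Among interferon-induced transmembrane genes, Ifitm2 had no read in WT and held 8.28 and 15.0 CPM in IRF8KO, with 40.9% of its exon bases shared with another gene. Ifitm3, the most studied member against viral entry, held 15.95 and 51.1 CPM in WT against 13.5 and 26.3 CPM (adjusted p = 0.93). Lrrc3, a leucine-rich repeat gene, was called higher in IRF8KO at P9 (1.11 on the log2 scale, adjusted p = 0.0199) and lower in adults. Adult WT held 800.0 and 1349 CPM against 172.6 and 329.1 CPM (-2.10 ± 0.39, adjusted p = 0.00351). The WT mean was 57.72 CPM at P9, 174.9 CPM at P14 and 1075 CPM in adults. The IRF8KO mean was 124.3, 293.3 and 250.9 CPM at the same ages. The adult call of Lrrc3 was lost without IRF8KO replicate 1 (adjusted p = 0.0607).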
